A study of Mus musculus with 2 samples.

Results

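The glycolysis, lactate and hypoxia genes are 32 genes chosen by name, from glucose entry to lactate export, with hypoxia genes and 3 amino acid transporter genes beside them. They were found as 33 of the 32285 gene rows in each of 2 single-cell RNA libraries, because 1 symbol, Aldoa, had a second row, which held 6 unique molecular identifiers (UMIs) in all kept cells and is not described further. The libraries were 10x Genomics 3′ libraries of immune cells from the small intestine lamina propria, the connective tissue beneath the gut lining, sorted for viability and CD45, with cells bearing EPCAM, Ter119 or CD31 set aside. Both genotypes carried floxed alleles of Aster-A, a sterol carrier between membranes that Gramd1a encodes. Mice of the CD4-Cre group (CD4-Cre; Aster-A F/F) also carried a Cre transgene under Cd4 control, which acts in αβ T cells from their development in the thymus, CD8 T cells included, and littermates of the F/F group (Aster-A F/F) carried no Cre by their label. All were females of 10 to 12 weeks, studied 2 h after an olive oil gavage that ended a 16 h fast. Each mouse gave 100000 sorted cells, and 1 library per genotype was made from the joined cells of 3 mice. Each genotype is therefore 1 sample, so no difference between the genotypes was tested, and the intervals below cover counting error only, not the variation between mice.

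Glycolysis breaks glucose down to pyruvate in the cytosol. Lactate dehydrogenase turns pyruvate into lactate, which monocarboxylate transporters carry across the membrane, and lymphocytes that divide are known for a high flux through this route. When oxygen is low, the transcription factor HIF-1 (its α subunit is encoded by Hif1a) raises many of these genes through promoter motifs with the core ACGTG or GCGTG.

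The CD4-Cre library held 200580083 UMIs and the F/F library 222838658, of which 12526 CD4-Cre and 12594 F/F cells were kept, with medians of 14031 UMIs per CD4-Cre cell and 15319.5 UMIs per F/F cell, and 47 cell barcodes were shared by both libraries. Clusters were made without the 32 genes and named from fixed markers, and 18 classes held at least 50 cells. The largest were plasma-like cells with 6423 CD4-Cre and 7487 F/F cells, cycling plasma-like cells with 891 CD4-Cre and 1321 F/F cells and CD4 T-like cells with 1187 CD4-Cre and 806 F/F cells. Clusters that met no marker rule keep a number. Cluster 6 was led by Zbtb16 and Il4, cluster 11 by Klra7 and Xcl1, cluster 20 by Hs6st2 and Cd163l1, cluster 21 by histone genes and Top2a, and cluster 27 by Cxcl2 and Cd163. Doublets were not called, and clusters that mixed T cell and plasma cell genes were left out. Levels are counts per 1000000 (CPM), the UMIs of a gene summed over a class and divided by all UMIs outside immunoglobulin genes there. The 3′ chemistry reads 1 tag per molecule, so levels were not divided by gene length. In CD4 T-like cells Gramd1a had 45.2 CPM (95% interval 38.9 to 52.3) in CD4-Cre against 59.2 CPM (50.6 to 68.7) in F/F. A 3′ tag can lie outside the deleted part, so this level does not check the genotype labels. Cd4 itself had 1330.2 CPM in CD4-Cre against 289.7 CPM in F/F CD4 T-like cells. RNA of 12 pancreatic acinar markers summed to between 0 and 67.5 CPM over the classes of CD4-Cre, against between 169.9 and 5497 CPM over those of F/F. Barcodes too small to be cells also held the members, for example Gapdh at 515 CPM in CD4-Cre and 549 CPM in F/F and Hk2 at 7.29 CPM in CD4-Cre and 7.92 CPM in F/F, so levels well under these may come from free RNA, which was not tested.

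Of the members, 29 of 32 symbols matched a promoter in RefSeq (GRCm38.p6), and the 250 bases before their start sites were searched for ACGTG and GCGTG on both strands. One of these cores was present in 34 of 42 member promoters, which is 81.0%, against 38.6% of all 32851 promoters in that table. The stricter ACGTG was present in 20 of 42 (47.6%) against 16.6%, and the member promoters were also richer in G and C, with a median of 60.4% against 52.4%. A match is a stretch of letters and not a measured binding site. The promoters of Ldha, Pgk1, Pgam1 and Gapdh can be set beside that of Hk2, whose pattern was another one. Of the classes with at least 100 cells in each library, the first 4 were highest in the cluster led by histone genes and Top2a. Tpi1, Eno1 and Pkm were highest there too and are not printed. The Tpi1 promoter held neither core, and the Eno1 promoters held GCGTG but no ACGTG. The Pkm promoters differed, with ACGTG in that at chr9:59656977-59657276 and neither core in that at chr9:59656326-59656625. Capitals mark the motif cores on either strand, and sequences read 5′ to 3′ on the gene's strand.
Ldha, chr7:46845554-46845803, plus strand: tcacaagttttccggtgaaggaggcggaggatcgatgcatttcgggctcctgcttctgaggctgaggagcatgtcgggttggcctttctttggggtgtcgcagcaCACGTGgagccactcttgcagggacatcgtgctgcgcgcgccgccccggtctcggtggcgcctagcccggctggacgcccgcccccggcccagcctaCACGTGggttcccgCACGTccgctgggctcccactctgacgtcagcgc
Pgk1, chrX:106186850-106187099, plus strand: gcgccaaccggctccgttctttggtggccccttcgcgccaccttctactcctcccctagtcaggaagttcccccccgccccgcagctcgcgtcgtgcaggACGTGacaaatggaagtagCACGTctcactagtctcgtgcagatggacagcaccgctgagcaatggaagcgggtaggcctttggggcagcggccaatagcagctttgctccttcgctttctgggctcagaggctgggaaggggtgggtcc
Pgam1, chr19:41911621-41911870, plus strand: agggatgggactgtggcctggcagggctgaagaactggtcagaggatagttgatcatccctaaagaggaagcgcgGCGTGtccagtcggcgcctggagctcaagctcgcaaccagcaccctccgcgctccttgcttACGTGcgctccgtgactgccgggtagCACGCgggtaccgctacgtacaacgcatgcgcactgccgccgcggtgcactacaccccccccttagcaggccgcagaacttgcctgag
Gapdh, chr6:125165774-125166023, minus strand: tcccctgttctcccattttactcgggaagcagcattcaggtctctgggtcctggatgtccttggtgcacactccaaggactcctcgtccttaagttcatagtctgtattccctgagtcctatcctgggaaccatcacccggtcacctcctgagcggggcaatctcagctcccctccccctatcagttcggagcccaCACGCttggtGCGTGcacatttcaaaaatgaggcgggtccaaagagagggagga
Hk2, chr6:82774455-82774704, minus strand: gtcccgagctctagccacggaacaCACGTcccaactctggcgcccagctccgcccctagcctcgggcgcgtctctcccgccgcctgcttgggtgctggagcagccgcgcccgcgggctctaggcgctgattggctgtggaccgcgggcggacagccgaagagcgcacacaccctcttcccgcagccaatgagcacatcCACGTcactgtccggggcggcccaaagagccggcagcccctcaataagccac
The printed Ldha promoter held its cores partly inside the palindrome CACGTG, where both strands match, and the Gapdh promoter held GCGTG cores on both strands and no ACGTG. A second Ldha promoter, at chr7:46846832-46847131 and not printed, held GCGTG but no ACGTG.

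Glucose enters cells through the facilitative transporters Slc2a1 (GLUT1, chr4:119108711-119137983) and Slc2a3 (GLUT3, chr6:122727809-122801640). Slc2a1 had 14.4 against 14.1 CPM in plasma-like cells, 31.5 against 28.4 in CD4 T-like cells, 43.5 against 51.2 in cluster 6, 53.0 against 48.0 in cluster 11 and 8.29 against 12.1 in cDC1-like cells, each given as CD4-Cre against F/F. Slc2a3 had 3.40 against 3.96 CPM in plasma-like cells, 57.7 against 54.7 in CD4 T-like cells, 90.7 against 111 in cluster 6, 28.2 against 41.0 in cluster 11 and 5.53 against 4.55 in cDC1-like cells, also as CD4-Cre against F/F. Slc2a3 was thus sparse in plasma cells and cDC1-like cells and, of the compared classes, highest in cluster 6, where 12.5% (95% interval 10.2 to 15.1) of CD4-Cre and 14.3% (10.8 to 18.4) of F/F cells of cluster 6 had a UMI after thinning to 1500 UMIs per cell, compared with 0.266% (95% interval 0.155 to 0.425) of CD4-Cre and 0.295% (0.185 to 0.447) of F/F plasma-like cells. Unthinned, the shares were 24.0% of CD4-Cre and 28.5% of F/F cells of cluster 6 and 2.35% of CD4-Cre and 2.74% of F/F cells of the plasma-like class, at median depths of 3327 UMIs in CD4-Cre and 3595 UMIs in F/F per cell for cluster 6 and 16677 UMIs in CD4-Cre and 16440 UMIs in F/F for plasma-like cells, immunoglobulin UMIs included. Among the small classes, Slc2a3 had 151 CPM in CD4-Cre against 99.95 CPM in F/F in neutrophil-like cells and 164 CPM in CD4-Cre against 37.8 CPM in F/F in cluster 27. Of the UMIs of both transporters, Slc2a1 took 80.9% (95% interval 78.1 to 83.4) in CD4-Cre against 78.0% (75.4 to 80.5) in F/F plasma-like cells. In CD4 T-like cells Slc2a1 took 35.3% (95% interval 30.3 to 40.5) in CD4-Cre against 34.2% (28.2 to 40.5) in F/F. The transporter balance therefore leaned to Slc2a1 in plasma cells and macrophage-like cells (74.0% in CD4-Cre against 70.5% in F/F) and to Slc2a3 in the T cell classes other than cluster 11.

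Hexokinases trap glucose as glucose 6-phosphate. Hk1 (chr10:62268855-62379908) is the common form, Hk2 (chr6:82725025-82774454) the inducible form and Hk3 (chr13:55005985-55021385) a form known from myeloid cells. Hk1 had 12.2 against 10.9 CPM in plasma-like cells, 10.3 against 7.67 in cycling plasma-like cells, 56.5 against 66.4 in CD4 T-like cells, 55.5 against 65.0 in cluster 6 and 61.7 against 71.2 in cluster 20, as CD4-Cre against F/F. Hk2 had 92.5 against 125 CPM in macrophage-like cells, 33.2 against 48.7 in cDC1-like cells, 99.3 against 134 in cluster 20, 70.8 against 103 in cDC2-like cells and 95.9 against 164 in cluster 27 in CD4-Cre against F/F. In plasma-like cells Hk2 had 10.9 CPM in CD4-Cre against 14.4 CPM in F/F, and in CD8 T-like, γδ or unconventional T-like cells and cluster 6 it was at or under 8.12 CPM in both libraries, near its level in empty barcodes. Of the compared classes, Hk2 was thus highest in cluster 20 and macrophage-like cells and low in most T cells, and 15.8% (95% interval 12.3 to 19.9) of CD4-Cre and 17.6% (14.6 to 20.9) of F/F macrophage-like cells had a UMI after thinning. The same share was 0% (95% interval 0 to 1.18) of CD4-Cre and 0.813% (0.0986 to 2.91) of F/F γδ or unconventional T-like cells. Unthinned shares were 35.7% of CD4-Cre and 41.5% of F/F cells of the macrophage-like class against 1.28% of CD4-Cre and 4.05% of F/F cells of these T cells, at median depths of 5896 UMIs in CD4-Cre and 5873 UMIs in F/F for macrophage-like cells and 4163.5 UMIs in CD4-Cre and 4454 UMIs in F/F for the T cells. Migratory DC-like cells held 1 Hk2 UMI in each library. Of the compared classes, Hk3 was highest in macrophage-like cells with 23.6 CPM in CD4-Cre against 28.0 CPM in F/F and cDC1-like cells with 21.03 CPM in CD4-Cre against 20.9 CPM in F/F. Neutrophil-like cells had 75.4 CPM in CD4-Cre against 12.5 CPM in F/F, from 10 CD4-Cre and 1 F/F UMIs, and cluster 27 had 22.6 CPM in CD4-Cre against 25.2 CPM in F/F, from 4 UMIs in each library. In the compared T cell classes Hk3 was at or under 2.52 CPM, and it had no UMI in CD8 T-like, γδ or unconventional T-like cells and cluster 6. Cluster 20 is not counted among the T cell classes, since Cd3e was found in 29.8% and Trac in 11.0% of its cells. A count of 0 in CD8 T-like cells allows up to 2.02 CPM in CD4-Cre and 4.95 CPM in F/F, taken as 3 UMIs. As a share of hexokinase UMIs, Hk2 made up 68.9% (95% interval 63.7 to 73.7) in CD4-Cre against 70.8% (67.4 to 74.1) in F/F macrophage-like cells. It made up 46.5% (95% interval 43.6 to 49.3) in CD4-Cre against 56.5% (53.9 to 59.0) in F/F plasma-like cells and 6.94% (95% interval 3.38 to 12.4) in CD4-Cre against 11.1% (5.46 to 19.5) in F/F cluster 6.

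**Figure D1:**
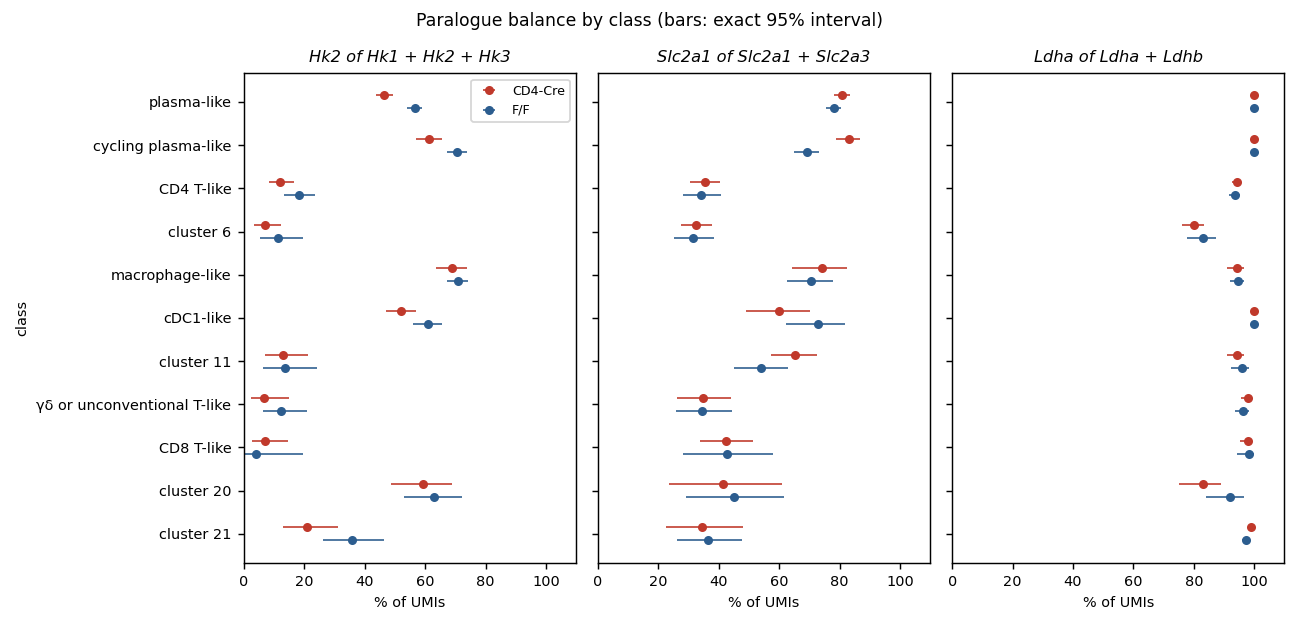
Share of UMIs (percent, x axis) that Hk2 takes of the 3 hexokinases, Slc2a1 of the pair of glucose transporters and Ldha of the pair of lactate dehydrogenases, by class (y axis), for CD4-Cre (red) and F/F (blue), with exact 95% intervals as bars. Hk2 is low in CD4 T-like, CD8 T-like, γδ or unconventional T-like cells and clusters 6 and 11, Slc2a1 leads in plasma cells, and of the 11 classes drawn Ldha takes the lowest share in cluster 6.

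Gpi1 (chr7:34201330-34230336) encodes glucose 6-phosphate isomerase, the next step. Gpi1 had 87.3 against 75.8 CPM in plasma-like cells, 98.9 against 96.3 in cycling plasma-like cells, 201 against 163 in B-like cells and 172 against 168 in cluster 21 in CD4-Cre against F/F. Among the other T cell and lymphoid clusters, Gpi1 had 182 against 179.6 CPM in CD4 T-like cells, 209 against 198 in CD8 T-like cells, 134 against 148 in γδ or unconventional T-like cells, 155 against 160.0 in cluster 6, 144 against 156 in cluster 11 and 147 against 122 in cluster 20 in CD4-Cre against F/F. Gpi1 was thus lower in both plasma cell classes than in any T cell class of the same library. Among myeloid cells, Gpi1 had 172 against 160.3 CPM in macrophage-like cells, 281 against 259.6 in cDC1-like cells, 227 against 193 in cDC2-like cells, 182 against 197 in migratory DC-like cells, 113 against 162 in neutrophil-like cells and 192 against 189 in cluster 27 in CD4-Cre against F/F. Innate lymphoid cells had 181 against 119 CPM in NK or ILC1-like cells and 186 against 143 in ILC2-like cells of Gpi1 in CD4-Cre against F/F. Of the compared classes, cDC1-like cells had the highest Gpi1 level and plasma-like cells the lowest in both libraries.

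Phosphofructokinase commits sugar to glycolysis, and its 3 genes differed by cell class. Pfkp (chr13:6579768-6648777) had 151 against 163 CPM in cluster 20, 149 against 122 in cDC1-like cells, 114 against 100.2 in γδ or unconventional T-like cells, 34.5 against 35.2 in plasma-like cells and 44.1 against 31.0 in macrophage-like cells, as CD4-Cre against F/F. Pfkl (chr10:77986947-78010083) ranged from 13.8 to 36.0 CPM in CD4-Cre and 9.89 to 32.5 CPM in F/F over the 11 compared classes, and Pfkm (chr15:98092589-98132451), the muscle form, ranged from 0 to 3.00 CPM in CD4-Cre and 0.812 to 3.11 CPM in F/F. Pfkp was the main form by UMI share in each compared class, with 90.8% in CD4-Cre against 88.3% in F/F of phosphofructokinase UMIs in cDC1-like cells and 56.3% in CD4-Cre against 58.8% in F/F in plasma-like cells. Pfkfb3 (chr2:11471433-11554077) and Pfkfb4 (chr9:108991778-109032228) make fructose 2,6-bisphosphate, an activator of phosphofructokinase. Pfkfb3 had 4.31 against 4.33 CPM in plasma-like cells, 47.2 against 46.0 in macrophage-like cells, 30.8 against 19.8 in cluster 11 and 141 against 285 in migratory DC-like cells in CD4-Cre against F/F, so migratory DC-like cells, with 39 CD4-Cre and 12 F/F cells, held the most. Pfkfb4 was at 24.0 CPM in CD4-Cre against 24.1 CPM in F/F in macrophage-like cells and 45.1 CPM in CD4-Cre against 56.7 CPM in F/F in cluster 27, and at or under 6.85 CPM in the other compared classes.

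Aldoa (chr7:126795234-126800751) encodes the common aldolase, which splits the 6-carbon sugar. The level of Aldoa, as CD4-Cre against F/F, was 163 against 153 CPM in plasma-like cells, 129.6 against 138 in cycling plasma-like cells, 328 against 205 in B-like cells and 229 against 212 in cluster 21. In the other lymphoid classes the level of Aldoa was 192 against 187 CPM in CD4 T-like cells, 169 against 209 in CD8 T-like cells, 143 against 140.1 in γδ or unconventional T-like cells, 189.8 against 182 in cluster 6, 158 against 157 in cluster 11 and 231 against 228 in cluster 20, again CD4-Cre against F/F. Unlike the later enzymes, Aldoa had less per UMI outside immunoglobulin genes in cycling than in other plasma-like cells of either library. The direction over all UMIs was not examined. Myeloid levels of Aldoa were 156 against 126 CPM in macrophage-like cells, 197 against 192 in cDC1-like cells, 151 against 151 in cDC2-like cells, 425 against 258 in migratory DC-like cells, 272 against 199.9 in neutrophil-like cells and 141 against 170.2 in cluster 27, as CD4-Cre against F/F. Aldoa reached 162 against 153 CPM in NK or ILC1-like cells and 198 against 286 in ILC2-like cells in CD4-Cre against F/F. The compared classes differed little in Aldoa, with a highest level 1.78 times the lowest in CD4-Cre and 1.80 times in F/F. Over the compared classes Aldoc (chr11:78322968-78327781), a second aldolase, ranged from 0 to 7.37 CPM in CD4-Cre and 0 to 6.64 CPM in F/F. It was highest there in cDC1-like and plasma-like cells. The small cDC2-like class held more, with 7.99 CPM in CD4-Cre against 11.2 CPM in F/F.

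The 7 genes Tpi1, Gapdh, Pgk1, Pgam1, Eno1, Pkm and Ldha, which carry triose phosphate to lactate, shared a pattern. Among the 11 classes with at least 100 cells in each library, all 7 were highest in cluster 21 of both libraries, a T cell cluster in which Cd3e was found in 86.25% of cells and Mki67, a marker of dividing cells, in 82.6% of CD4-Cre and 81.5% of F/F cells. The 12 cycling markers summed to 6725 CPM in CD4-Cre against 6668 CPM in F/F in cluster 21 and 5506 CPM in CD4-Cre against 4976 CPM in F/F in cycling plasma-like cells, with all 12 markers found in each, but to 235 CPM in CD4-Cre against 226 CPM in F/F in plasma-like cells. As background, Mki67 was seen in 1.79% of CD4-Cre and 1.44% of F/F cells of cluster 6. The summed level of 13 glycolytic enzyme genes was 3492 CPM in CD4-Cre against 3284 CPM in F/F in cluster 21, 2817 CPM in CD4-Cre against 2845 CPM in F/F in cycling plasma-like cells and 1333 CPM in CD4-Cre against 1284 CPM in F/F in plasma-like cells. In CD4 T-like cells it was 1618 CPM in CD4-Cre against 1638 CPM in F/F and in macrophage-like cells 1498 CPM in CD4-Cre against 1304 CPM in F/F. Of the compared classes, cluster 21 and cycling plasma-like cells thus held the most glycolytic RNA per UMI outside immunoglobulin genes in both libraries.

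**Figure D2:**
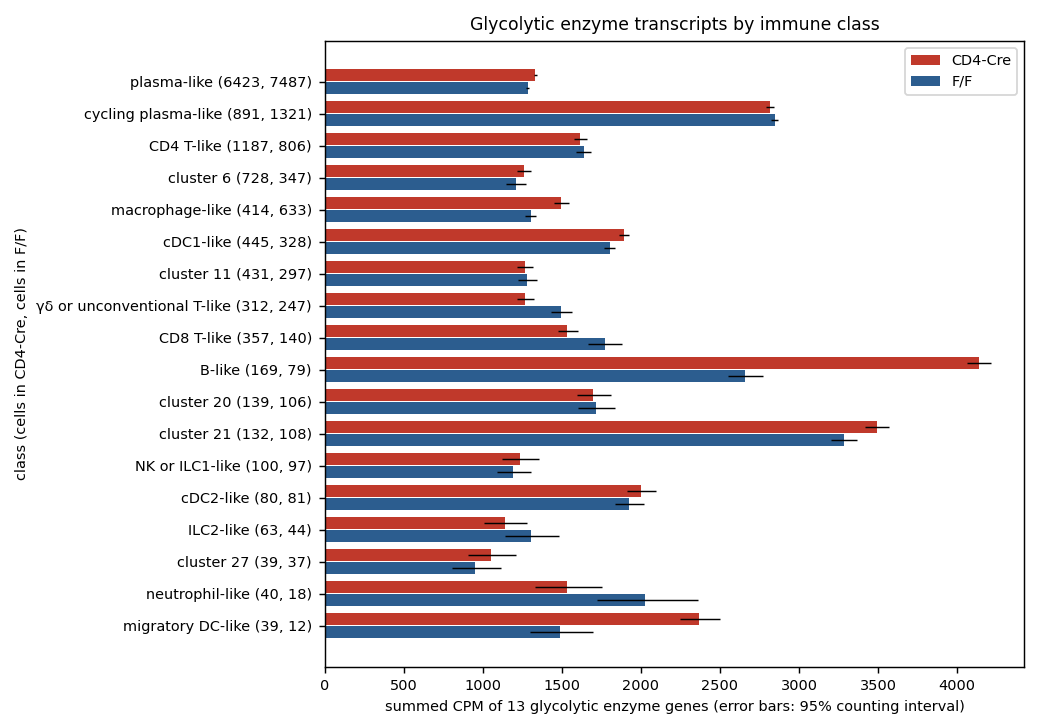
Summed CPM of 13 glycolytic enzyme genes (x axis, from 0) in each of 18 classes (y axis, with cells per library) for CD4-Cre (red) above F/F (blue), with 95% counting intervals as error bars. Cluster 21, cycling plasma-like and B-like cells extend furthest, and B-like cells had 4139 CPM in CD4-Cre against 2659 CPM in F/F.

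Tpi1 (chr6:124810586-124814296) encodes triose phosphate isomerase. CD4-Cre against F/F cells held Tpi1 at 52.8 against 53.5 CPM in plasma-like cells, 149 against 159 in cycling plasma-like cells, 272 against 154 in B-like cells and 173 against 170.0 in cluster 21. Other lymphoid classes of CD4-Cre against F/F held Tpi1 at 34.7 against 41.9 CPM in CD4 T-like cells, 26.3 against 32.98 in CD8 T-like cells, 51.4 against 71.1 in γδ or unconventional T-like cells, 34.0 against 40.6 in cluster 6, 59.0 against 70.6 in cluster 11 and 59.9 against 69.2 in cluster 20. The dividing classes thus held several times the Tpi1 level of CD4 and CD8 T-like cells. Myeloid classes of CD4-Cre against F/F held Tpi1 at 66.9 against 66.6 CPM in macrophage-like cells, 67.7 against 72.2 in cDC1-like cells, 54.8 against 77.3 in cDC2-like cells, 31.3 against 20.4 in migratory DC-like cells, 37.7 against 87.5 in neutrophil-like cells and 84.7 against 37.8 in cluster 27. The innate lymphoid classes of CD4-Cre against F/F held Tpi1 at 53.0 against 77.7 CPM in NK or ILC1-like cells and 56.5 against 57.2 in ILC2-like cells. In each of these myeloid and innate lymphoid classes Tpi1 stayed under its level in cluster 21 of the same library.

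Gapdh (chr6:125161715-125166467) encodes the dehydrogenase that makes the first NADH of the pathway, and it has many near copies in the genome that could take or lend reads. Gapdh had 534 against 544 CPM in plasma-like cells, 1468 against 1517 in cycling plasma-like cells, 2007 against 1292 in B-like cells and 1706 against 1608 in cluster 21 in CD4-Cre against F/F. Among the other T cell and lymphoid clusters, Gapdh had 606 against 629 CPM in CD4 T-like cells, 619 against 782 in CD8 T-like cells, 423 against 621 in γδ or unconventional T-like cells, 363 against 356 in cluster 6, 430.3 against 432 in cluster 11 and 454 against 469.9 in cluster 20 in CD4-Cre against F/F. Cluster 6 had the lowest Gapdh level of the compared classes in both libraries. Among myeloid cells, Gapdh had 541 against 502 CPM in macrophage-like cells, 668 against 665 in cDC1-like cells, 906 against 799 in cDC2-like cells, 1019 against 530.1 in migratory DC-like cells, 429.9 against 737 in neutrophil-like cells and 327 against 227 in cluster 27 in CD4-Cre against F/F. Innate lymphoid cells had 318 against 319 CPM in NK or ILC1-like cells and 263 against 440.1 in ILC2-like cells of Gapdh in CD4-Cre against F/F. Migratory DC-like, neutrophil-like and ILC2-like cells were few, and their levels differed between the libraries in both directions.

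Pgk1 (chrX:106187100-106203699) encodes the first ATP-yielding enzyme of glycolysis. The level of Pgk1, as CD4-Cre against F/F, was 126 against 115 CPM in plasma-like cells, 245 against 239.6 in cycling plasma-like cells, 262 against 189.7 in B-like cells and 287 against 248 in cluster 21. In the other lymphoid classes the level of Pgk1 was 97.2 against 105 CPM in CD4 T-like cells, 76.2 against 101 in CD8 T-like cells, 74.5 against 76.1 in γδ or unconventional T-like cells, 81.2 against 68.2 in cluster 6, 75.7 against 72.8 in cluster 11 and 82.2 against 89.5 in cluster 20, again CD4-Cre against F/F. Outside the dividing classes, plasma-like cells held more Pgk1 per UMI outside immunoglobulin genes than any T cell class named here. Immunoglobulin genes took a median of 54.5% in CD4-Cre and 53.1% in F/F of all UMIs in a plasma-like cell. In CD4 T-like cells they took 3.60% in CD4-Cre and 3.59% in F/F. Myeloid levels of Pgk1 were 101 against 82.1 CPM in macrophage-like cells, 154 against 137 in cDC1-like cells, 94.7 against 125 in cDC2-like cells, 196 against 129 in migratory DC-like cells, 75.4 against 87.5 in neutrophil-like cells and 56.4 against 37.8 in cluster 27, as CD4-Cre against F/F. Pgk1 reached 80.9 against 75.1 CPM in NK or ILC1-like cells and 56.5 against 74.3 in ILC2-like cells in CD4-Cre against F/F. Among myeloid classes in CD4-Cre, migratory DC-like and cDC1-like cells were highest.

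Pgam1 (chr19:41911923-41918660) encodes phosphoglycerate mutase. CD4-Cre against F/F cells held Pgam1 at 75.0 against 68.6 CPM in plasma-like cells, 149.7 against 141 in cycling plasma-like cells, 290.3 against 167 in B-like cells and 160.4 against 143 in cluster 21. Other lymphoid classes of CD4-Cre against F/F held Pgam1 at 53.7 against 54.7 CPM in CD4 T-like cells, 47.9 against 54.4 in CD8 T-like cells, 61.0 against 51.2 in γδ or unconventional T-like cells, 65.5 against 48.7 in cluster 6, 48.9 against 44.5 in cluster 11 and 83.9 against 89.5 in cluster 20. Of the compared classes, Pgam1 was lowest in CD8 T-like cells of CD4-Cre and in cluster 11 of F/F. Myeloid classes of CD4-Cre against F/F held Pgam1 at 69.7 against 62.4 CPM in macrophage-like cells, 134 against 117 in cDC1-like cells, 104 against 121 in cDC2-like cells, 115 against 74.8 in migratory DC-like cells, 75.4 against 137 in neutrophil-like cells and 56.4 against 50.4 in cluster 27. The innate lymphoid classes of CD4-Cre against F/F held Pgam1 at 53.0 against 62.2 CPM in NK or ILC1-like cells and 32.3 against 17.1 in ILC2-like cells. The compared classes spanned 3.35 times in CD4-Cre and 3.20 times in F/F.

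Eno1 (chr4:150236721-150248879) encodes the main enolase, and a near copy, Eno1b, makes its counts uncertain. Eno1 had 41.9 against 37.2 CPM in plasma-like cells, 125 against 124 in cycling plasma-like cells, 250.3 against 118 in B-like cells and 183 against 191 in cluster 21 in CD4-Cre against F/F. Among the other T cell and lymphoid clusters, Eno1 had 97.4 against 94.1 CPM in CD4 T-like cells, 90.4 against 119 in CD8 T-like cells, 68.1 against 73.2 in γδ or unconventional T-like cells, 108 against 87.7 in cluster 6, 85.7 against 83.4 in cluster 11 and 152 against 167 in cluster 20 in CD4-Cre against F/F. Plasma-like cells had the lowest Eno1 level of the compared classes in both libraries. Among myeloid cells, Eno1 had 98.7 against 66.1 CPM in macrophage-like cells, 50.03 against 45.5 in cDC1-like cells, 137 against 125 in cDC2-like cells, 32.996 against 6.80 in migratory DC-like cells, 98.1 against 99.95 in neutrophil-like cells and 39.5 against 101 in cluster 27 in CD4-Cre against F/F. Innate lymphoid cells had 114 against 124 CPM in NK or ILC1-like cells and 72.7 against 40.01 in ILC2-like cells of Eno1 in CD4-Cre against F/F. Macrophage-like cells showed the widest library gap of the compared classes, with a ratio of 1.49 (95% interval 1.252 to 1.78), just inside the 1.5-fold limit. Eno2 (chr6:124760053-124769673), the neuronal enolase, had 23 UMIs in CD4-Cre and 30 in F/F kept cells and was sparse throughout.

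Pkm (chr9:59656368-59679375) encodes pyruvate kinase. The level of Pkm, as CD4-Cre against F/F, was 186 against 172 CPM in plasma-like cells, 369 against 349 in cycling plasma-like cells, 421 against 299 in B-like cells and 470.2 against 446 in cluster 21. In the other lymphoid classes the level of Pkm was 251 against 258 CPM in CD4 T-like cells, 188 against 188 in CD8 T-like cells, 181 against 193 in γδ or unconventional T-like cells, 164 against 169.8 in cluster 6, 158 against 146 in cluster 11 and 301 against 281 in cluster 20, again CD4-Cre against F/F. Cluster 11 had the lowest Pkm level of the compared classes in both libraries. Myeloid levels of Pkm were 223 against 180.0 CPM in macrophage-like cells, 171 against 169 in cDC1-like cells, 233 against 188 in cDC2-like cells, 233 against 183 in migratory DC-like cells, 377 against 462 in neutrophil-like cells and 90.3 against 69.3 in cluster 27, as CD4-Cre against F/F. Pkm reached 176 against 155 CPM in NK or ILC1-like cells and 162 against 177 in ILC2-like cells in CD4-Cre against F/F. Neutrophil-like cells, with 40 CD4-Cre and 18 F/F cells, were highest of the myeloid classes.

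Ldha (chr7:46841475-46855627) encodes the lactate dehydrogenase subunit that favours lactate formation, and Ldhb (chr6:142490249-142507957) the subunit of oxidative tissues. CD4-Cre against F/F cells held Ldha at 60.9 against 59.4 CPM in plasma-like cells, 184 against 200.4 in cycling plasma-like cells, 465 against 214 in B-like cells and 384 against 384 in cluster 21. Other lymphoid classes of CD4-Cre against F/F held Ldha at 212 against 215 CPM in CD4 T-like cells, 165 against 196 in CD8 T-like cells, 161 against 193 in γδ or unconventional T-like cells, 158 against 167 in cluster 6, 136 against 151 in cluster 11 and 175 against 163 in cluster 20. Of the compared classes, plasma-like cells were thus lowest in Ldha, although they were not low in Aldoa or Pgk1 per UMI outside immunoglobulin genes. Myeloid classes of CD4-Cre against F/F held Ldha at 113 against 95.1 CPM in macrophage-like cells, 292 against 285 in cDC1-like cells, 245 against 226 in cDC2-like cells, 36.5 against 68.0 in migratory DC-like cells, 166 against 149.9 in neutrophil-like cells and 56.4 against 50.4 in cluster 27. The innate lymphoid classes of CD4-Cre against F/F held Ldha at 167 against 186 CPM in NK or ILC1-like cells and 186 against 286 in ILC2-like cells. Besides cluster 21, cDC1-like cells stood high among the compared classes. Ldhb was close to absent in plasma cells, with 0.119 CPM in CD4-Cre against 0.0334 CPM in F/F, and in cDC1-like cells, with 0.307 CPM in CD4-Cre against 0.379 CPM in F/F. It had 39.4 against 34.1 CPM in cluster 6, 36.0 against 14.2 in cluster 20, 12.99 against 14.5 in CD4 T-like cells and 3.37 against 3.30 in CD8 T-like cells, as CD4-Cre against F/F. After thinning, 5.13% (95% interval 3.64 to 7.004) of CD4-Cre and 4.37% (2.47 to 7.11) of F/F cells of cluster 6 had an Ldhb UMI. The same share was 0% (95% interval 0 to 0.0577) of CD4-Cre and 0.0134% (0.00034 to 0.0748) of F/F plasma-like cells. Unthinned shares were 11.7% of CD4-Cre and 11.0% of F/F cells of cluster 6 and 0.0934% of CD4-Cre and 0.0267% of F/F cells of the plasma-like class. Ldha made up 80.0% (95% interval 76.2 to 83.5) in CD4-Cre against 83.0% (77.7 to 87.5) in F/F cluster 6, and 94.2% (95% interval 92.5 to 95.7) in CD4-Cre against 93.7% (91.5 to 95.4) in F/F CD4 T-like cells.

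**Figure D3:**
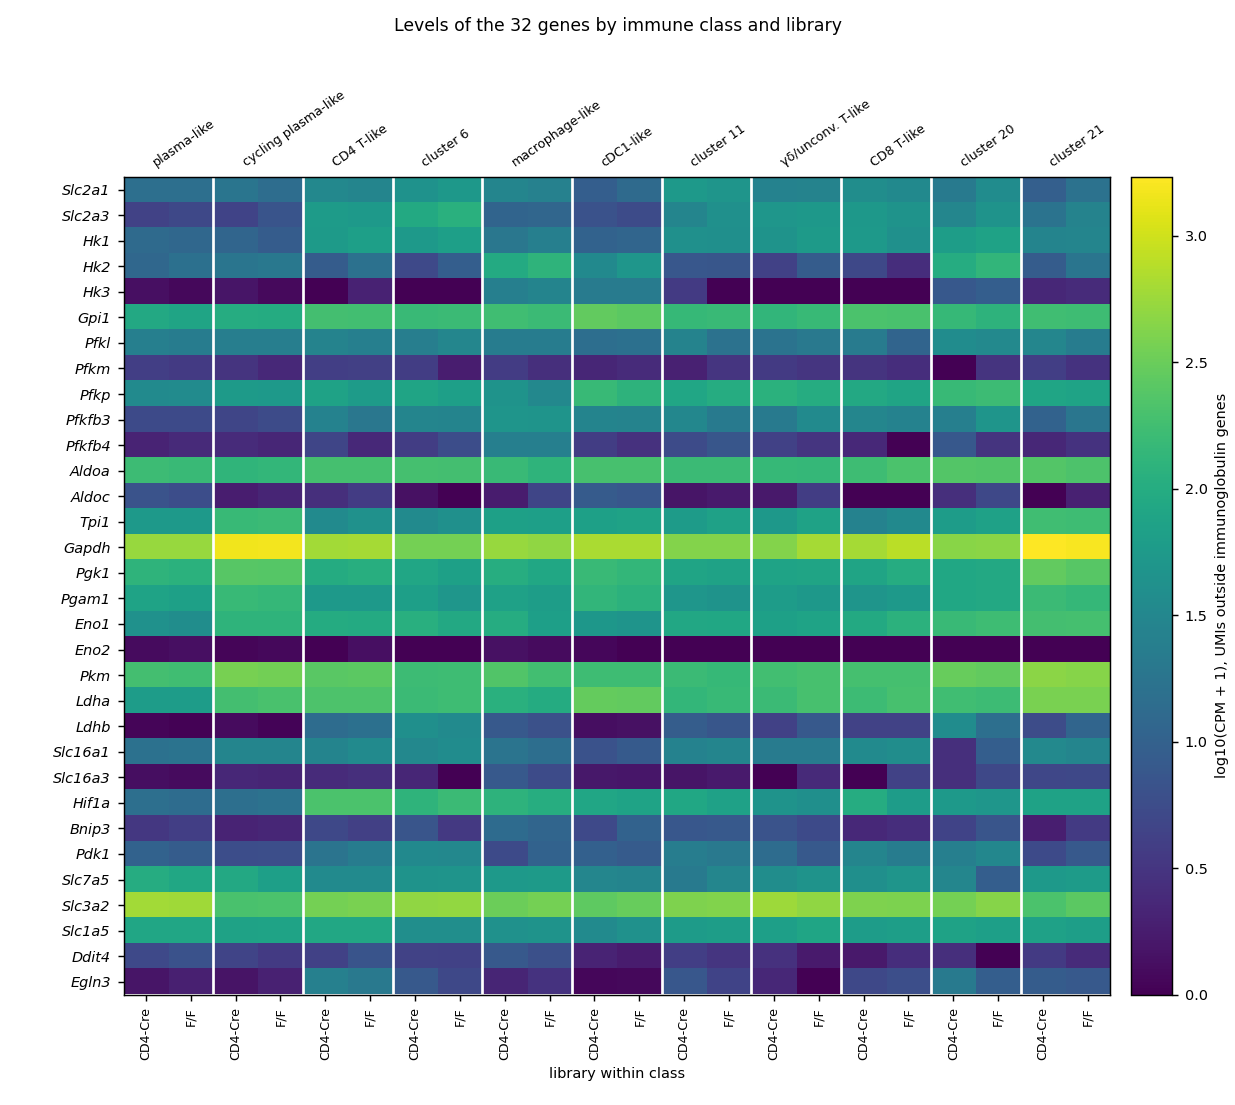
Level of each of the 32 genes (rows) in the 11 classes with at least 100 cells per library (column pairs, CD4-Cre left of F/F), as log10(CPM + 1) on a colour scale from dark (0) to yellow. Columns of most pairs look alike, Gapdh and Ldha are brightest in cluster 21, and Hk3, Ldhb and Egln3 are near 0 in several classes.

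Cycling and other plasma-like cells also differed in the lower pathway. Per UMI outside immunoglobulin genes, 9 of 26 members with enough UMIs were at least 1.5-fold higher in cycling than in other plasma-like cells of both libraries. At least 1.5-fold lower were 4. Immunoglobulin genes took a median of 27.0% in CD4-Cre and 24.1% in F/F of the UMIs of a cycling plasma-like cell. In other plasma-like cells they took 54.5% in CD4-Cre and 53.1% in F/F. Dividing by all UMIs would thus raise each ratio and may change both counts, which was not examined. The share among all 10659 genes was 16.4% higher and 14.6% lower, and since these classes are clusters, the ratios are a description with no test. The ratio for Ldha was 3.02 in CD4-Cre and 3.37 in F/F, for Eno1 2.98 in CD4-Cre and 3.33 in F/F, for Tpi1 2.83 in CD4-Cre and 2.96 in F/F and for Gapdh 2.75 in CD4-Cre and 2.79 in F/F. Pgk1, Pgam1, Pkm, Slc16a1 and Pfkp made up the rest of the 9, with ratios from 1.57 to 2.09 in F/F. The 4 lower genes were Slc3a2 at 0.33 in CD4-Cre and 0.35 in F/F, Pdk1 at 0.51 in CD4-Cre and 0.64 in F/F, Bnip3 at 0.46 in CD4-Cre and 0.42 in F/F and Aldoc at 0.14 in CD4-Cre and 0.25 in F/F. The early steps varied. Besides Pfkp at 1.64 in CD4-Cre and 1.57 in F/F, Hk2 was at 1.58 in CD4-Cre and 1.31 in F/F and Gpi1 at 1.13 in CD4-Cre and 1.27 in F/F, Pfkl was at 0.97 in CD4-Cre and 1.06 in F/F, and Hk1 was at 0.84 in CD4-Cre and 0.70 in F/F and Aldoa at 0.79 in CD4-Cre and 0.90 in F/F. Splitting B-like cells by Mki67 gave a summed enzyme level of 4657 CPM in CD4-Cre against 3334 CPM in F/F in cells with a Mki67 UMI (90 CD4-Cre and 25 F/F cells) and 1805 CPM in CD4-Cre against 1523 CPM in F/F in those without (79 CD4-Cre and 54 F/F). The B-like pools also differed in the share of cells with Mki67, which was 53.3% in CD4-Cre against 31.6% in F/F, and its part in the library difference of that class was not tested further. In cDC1-like cells the summed level was 2202 CPM in CD4-Cre against 1977 CPM in F/F with Mki67 and 1786 CPM in CD4-Cre against 1725 CPM in F/F without it. Of the 11 compared classes, the summed level was higher in cells with Mki67 in both libraries in 5, lower in both in 4 and mixed in 2. Those with lower levels were the cycling plasma-like class, with 2813 CPM in CD4-Cre against 2841 CPM in F/F with Mki67 and 2955 CPM in CD4-Cre against 2928 CPM in F/F without, cluster 21, with 3466 CPM in CD4-Cre against 3205 CPM in F/F with Mki67 and 3766 CPM in CD4-Cre against 3958 CPM in F/F without, and clusters 6 and 20, where few cells had Mki67.

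Monocarboxylate transporters move lactate and pyruvate, Slc16a1 (MCT1, chr3:104638668-104658462) in both directions and Slc16a3 (MCT4, chr11:120948480-120960868) mostly outward in glycolytic cells. Slc16a1 had 34.4 against 37.9 CPM in CD8 T-like cells, 28.0 against 34.3 in CD4 T-like cells, 28.8 against 28.7 in cycling plasma-like cells, 15.1 against 16.0 in plasma-like cells and 5.53 against 7.204 in cDC1-like cells, as CD4-Cre against F/F. It was sparse in cluster 20, with 1.71 CPM in CD4-Cre against 8.14 CPM in F/F, although of the compared classes it was highest in the upstream genes Pfkp, Hk1 and Hk2. Slc16a3 was low in the compared classes, from 0 to 6.97 CPM in CD4-Cre and 0 to 4.43 CPM in F/F, with macrophage-like cells highest. Neutrophil-like cells held 45.3 CPM in CD4-Cre against 49.98 CPM in F/F of Slc16a3, from 10 UMIs in all.

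Hif1a (chr12:73901375-73947530) had, of the compared classes, its highest level in CD4 T-like cells and its lowest in the 2 plasma cell classes. The level was 206 against 204 CPM in CD4 T-like cells, 126 against 158 in cluster 6, 123 against 103 in macrophage-like cells, 82.7 against 69.9 in cluster 11 and 82.0 against 73.9 in cDC1-like cells, as CD4-Cre against F/F. Plasma-like cells had 14.3 CPM in CD4-Cre against 12.9 CPM in F/F and cycling plasma-like cells 14.1 CPM in CD4-Cre against 15.5 CPM in F/F, both under the level in empty barcodes of 35.4 CPM in CD4-Cre and 36.2 CPM in F/F. A UMI of Hif1a was found in 23.3% (95% interval 20.9 to 25.9) of CD4-Cre and 22.7% (19.8 to 25.8) of F/F CD4 T-like cells after thinning. In plasma-like cells the share was 0.876% of CD4-Cre and 1.15% of F/F cells, and unthinned it was 40.8% of CD4-Cre and 43.1% of F/F cells of the CD4 T-like class and 10.03% of CD4-Cre and 9.28% of F/F cells of the plasma-like class. Median depths were 3141 UMIs in CD4-Cre and 3426.5 UMIs in F/F for CD4 T-like cells, below the plasma-like cells. Dividing T cells of cluster 21 had 72.8 CPM in CD4-Cre against 71.3 CPM in F/F, so the class highest in glycolytic enzymes was not the class highest in Hif1a RNA. HIF-1α is controlled mainly through protein stability, which these libraries do not measure.

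The gene of the oxygen sensor Egln3 (chr12:54178981-54203860), a prolyl hydroxylase that marks HIF-1α for decay and is itself a HIF-1 target, had 24.5 CPM in CD4-Cre against 19.4 CPM in F/F for CD4 T-like cells. It reached 20.6 CPM in CD4-Cre against 8.14 CPM in F/F in cluster 20 and was at or under 7.66 CPM in the other compared classes. Pdk1 (chr2:71873224-71903858), the kinase that blocks pyruvate entry into mitochondria, had 33.1 against 30.9 CPM in cluster 6, 28.3 against 21.4 in CD8 T-like cells, 22.2 against 19.1 in cluster 11, 9.32 against 7.81 in plasma-like cells and 4.74 against 4.98 in cycling plasma-like cells, as CD4-Cre against F/F. Over the compared classes Bnip3 (chr7:138890836-138909519), a mitophagy receptor, was low, from 0.851 to 12.4 CPM in CD4-Cre and 1.254 to 10.3 CPM in F/F. It was highest there in macrophage-like cells. Ddit4 (chr10:59949669-59951834), the stress-induced mTORC1 inhibitor REDD1, ranged from 0.675 to 6.97 CPM in CD4-Cre and 0 to 5.88 CPM in F/F over the compared classes. Plasma-like cells had 4.12 CPM of Ddit4 in CD4-Cre against 5.45 CPM in F/F. The highest of the compared classes thus differed between these genes. It was CD4 T-like cells for Hif1a and Egln3, cluster 6 for Pdk1 and macrophage-like cells for Bnip3.

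**Figure D4:**
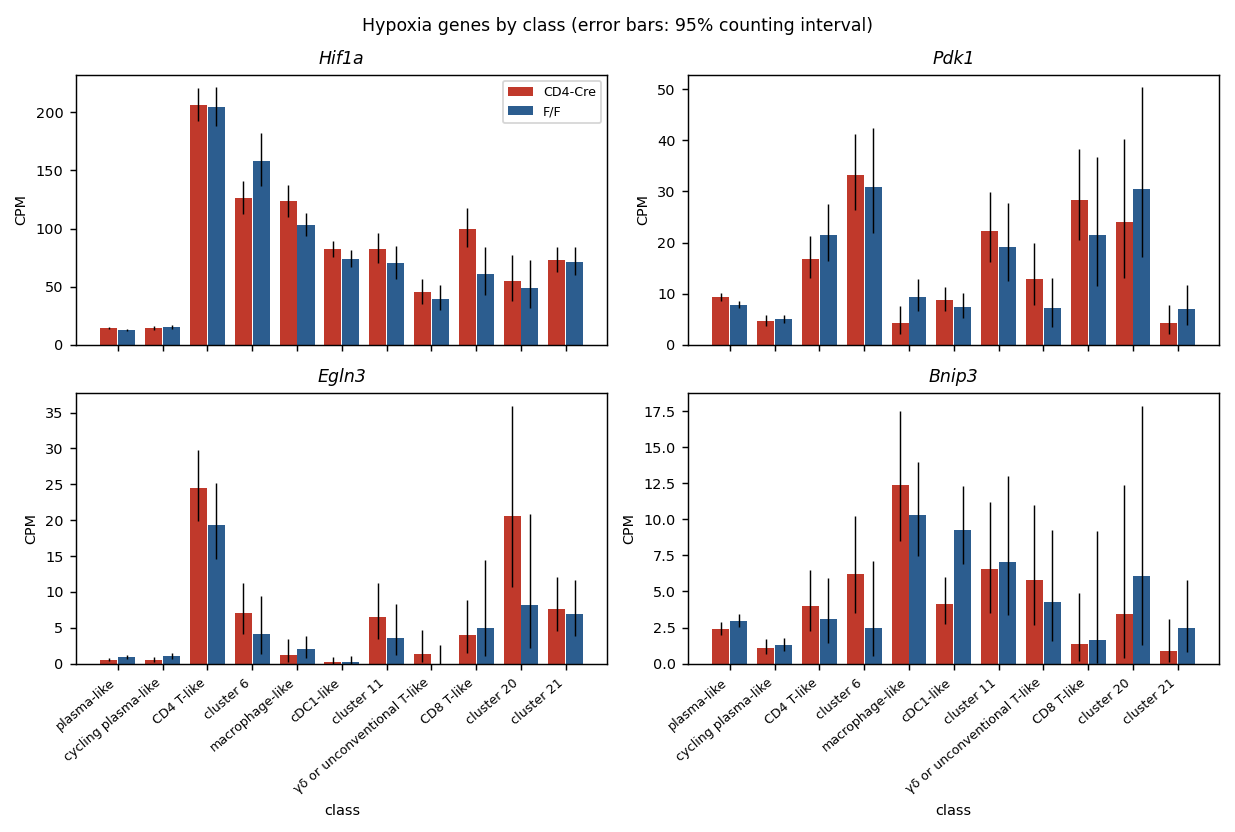
Level (CPM, y axis from 0) of Hif1a, Pdk1, Egln3 and Bnip3 in 11 classes (x axis), CD4-Cre (red) left of F/F (blue), with 95% counting intervals as error bars. Hif1a and Egln3 peak in CD4 T-like cells, Pdk1 in cluster 6 and Bnip3 in macrophage-like cells, and both libraries show these peaks.

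Slc3a2 (chr19:8706882-8723369) encodes CD98 heavy chain, the partner that brings Slc7a5 and related carriers to the membrane. Slc3a2 had 600.4 against 595 CPM in plasma-like cells, 200.3 against 206 in cycling plasma-like cells, 150.1 against 143 in B-like cells and 205 against 257 in cluster 21 in CD4-Cre against F/F. Among the other T cell and lymphoid clusters, Slc3a2 had 359 against 385 CPM in CD4 T-like cells, 405 against 388 in CD8 T-like cells, 566 against 496 in γδ or unconventional T-like cells, 500.1 against 512 in cluster 6, 402 against 420.3 in cluster 11 and 359.6 against 435 in cluster 20 in CD4-Cre against F/F. Per UMI outside immunoglobulin genes, Slc3a2 was thus high in plasma-like cells and low in every dividing class, opposite to the lower glycolytic enzymes. Among myeloid cells, Slc3a2 had 324 against 360.4 CPM in macrophage-like cells, 266 against 305 in cDC1-like cells, 260.2 against 342 in cDC2-like cells, 306 against 245 in migratory DC-like cells, 475 against 237 in neutrophil-like cells and 299 against 277 in cluster 27 in CD4-Cre against F/F. Innate lymphoid cells had 371 against 425 CPM in NK or ILC1-like cells and 299 against 240.0 in ILC2-like cells of Slc3a2 in CD4-Cre against F/F. The compared classes spanned 3.00 times in CD4-Cre and 2.89 times in F/F. The 10 plasma cell markers, all found in each of these classes, summed to 142259 CPM in CD4-Cre against 133893 CPM in F/F in plasma-like cells, 21955 CPM in CD4-Cre against 25334 CPM in F/F in γδ or unconventional T-like cells and 5665 CPM in CD4-Cre against 5246 CPM in F/F in CD4 T-like cells, and the part of carried-over plasma RNA in Slc3a2 was not tested. Within plasma-like cells, Slc3a2 was 432 CPM in CD4-Cre against 432 CPM in F/F with a Mki67 UMI and 644 CPM in CD4-Cre against 633 CPM in F/F without one.

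Slc7a5 (chr8:121881150-121907694) encodes LAT1, the carrier of large neutral amino acids. The level of Slc7a5, as CD4-Cre against F/F, was 97.9 against 82.5 CPM in plasma-like cells, 88.6 against 65.7 in cycling plasma-like cells, 58.7 against 43.2 in B-like cells and 54.5 against 58.3 in cluster 21. In the other lymphoid classes the level of Slc7a5 was 34.5 against 34.6 CPM in CD4 T-like cells, 39.8 against 47.8 in CD8 T-like cells, 37.9 against 44.8 in γδ or unconventional T-like cells, 44.3 against 46.3 in cluster 6, 20.2 against 29.7 in cluster 11 and 29.1 against 8.14 in cluster 20, again CD4-Cre against F/F. Of the compared classes, plasma-like cells, cycling or not, were highest in Slc7a5 per UMI outside immunoglobulin genes in both libraries. Myeloid levels of Slc7a5 were 54.6 against 56.8 CPM in macrophage-like cells, 29.8 against 27.5 in cDC1-like cells, 51.4 against 52.7 in cDC2-like cells, 26.0 against 20.4 in migratory DC-like cells, 60.3 against 112 in neutrophil-like cells and 73.4 against 25.2 in cluster 27, as CD4-Cre against F/F. Slc7a5 reached 41.8 against 31.1 CPM in NK or ILC1-like cells and 40.4 against 34.3 in ILC2-like cells in CD4-Cre against F/F. The small class values rest on few UMIs, 17 over both libraries in neutrophil-like cells and 17 in cluster 27.

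Slc1a5 (chr7:16781340-16798274) encodes ASCT2, a carrier of glutamine and other neutral amino acids. CD4-Cre against F/F cells held Slc1a5 at 81.4 against 81.8 CPM in plasma-like cells, 72.1 against 73.0 in cycling plasma-like cells, 71.4 against 63.6 in B-like cells and 69.4 against 63.8 in cluster 21. Other lymphoid classes of CD4-Cre against F/F held Slc1a5 at 84.9 against 86.5 CPM in CD4 T-like cells, 60.7 against 64.3 in CD8 T-like cells, 65.5 against 78.2 in γδ or unconventional T-like cells, 38.5 against 38.2 in cluster 6, 58.0 against 62.9 in cluster 11 and 71.9 against 65.1 in cluster 20. CD4 T-like and plasma-like cells were highest in Slc1a5 per UMI outside immunoglobulin genes among the compared classes of both libraries. Myeloid classes of CD4-Cre against F/F held Slc1a5 at 42.2 against 44.5 CPM in macrophage-like cells, 34.5 against 42.7 in cDC1-like cells, 46.8 against 58.3 in cDC2-like cells, 17.4 against 20.4 in migratory DC-like cells, 90.5 against 75.0 in neutrophil-like cells and 28.2 against 44.1 in cluster 27. The innate lymphoid classes of CD4-Cre against F/F held Slc1a5 at 41.8 against 41.4 CPM in NK or ILC1-like cells and 24.2 against 80.0 in ILC2-like cells. Slc1a5 thus varied less than Slc7a5, by 2.46 times in CD4-Cre and 2.27 times in F/F.

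Over the 11 compared classes, 30 members had at least 100 UMIs in 1 class or more, and 27 of the 30 had the same highest class in both libraries. As a description over 11 classes that share library and clustering, the rank correlation of a member's levels between the libraries had a median of 0.89 and was lowest for Pfkm at 0.33. The rank correlation of Ldha with the summed cycling markers was 0.88 in CD4-Cre and 0.87 in F/F, the highest of the members. That of Slc3a2 was the lowest, -0.82 in CD4-Cre and -0.65 in F/F. For Tpi1, Gapdh, Pgk1, Pgam1, Eno1 and Pkm it was weaker than for Ldha. In CD4-Cre these ranged from 0.50 for Pgam1 and Eno1 to 0.86 for Gapdh. In F/F they ranged from 0.35 for Pgam1 to 0.75 for Gapdh.

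Few members differed by 1.5-fold between CD4-Cre and F/F cells. A member was compared in a class where it had at least 100 UMIs over both libraries together, which gave 206 pairs of member and class, and 2 of these were past 1.5-fold. Slc2a3 was lower in cycling plasma-like cells of CD4-Cre, with 60 UMIs and 3.47 CPM, against 161 UMIs and 5.94 CPM in F/F, a ratio of 0.58 (95% interval 0.43 to 0.79). Of all genes in that class, 1.62% were at least 1.5-fold lower. This level was under that of empty barcodes, 21.9 CPM in CD4-Cre and 29.4 CPM in F/F, where F/F was also higher, and the part of free RNA was not tested. Hif1a was higher in CD8 T-like cells of CD4-Cre, with 148 UMIs and 99.8 CPM, against 37 UMIs and 61.0 CPM in F/F, a ratio of 1.64 (95% interval 1.13 to 2.41). Of all genes in CD8 T-like cells, 8.75% were at least 1.5-fold higher, and the median gene there had a log2 ratio of 0.11. The class held 357 CD4-Cre but 140 F/F cells, and the 5 cells richest in Hif1a gave 14.9% of its UMIs in CD4-Cre and 29.7% in F/F. After thinning, a Hif1a UMI was found in 12.9% (95% interval 9.59 to 16.8) of CD4-Cre and 7.14% (3.48 to 12.7) of F/F CD8 T-like cells. Unthinned, it was found in 28.9% of CD4-Cre and 20.7% of F/F cells of that class. For CD4 T-like cells, Hif1a had a ratio of 1.01 (95% interval 0.91 to 1.12).

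**Figure D5:**
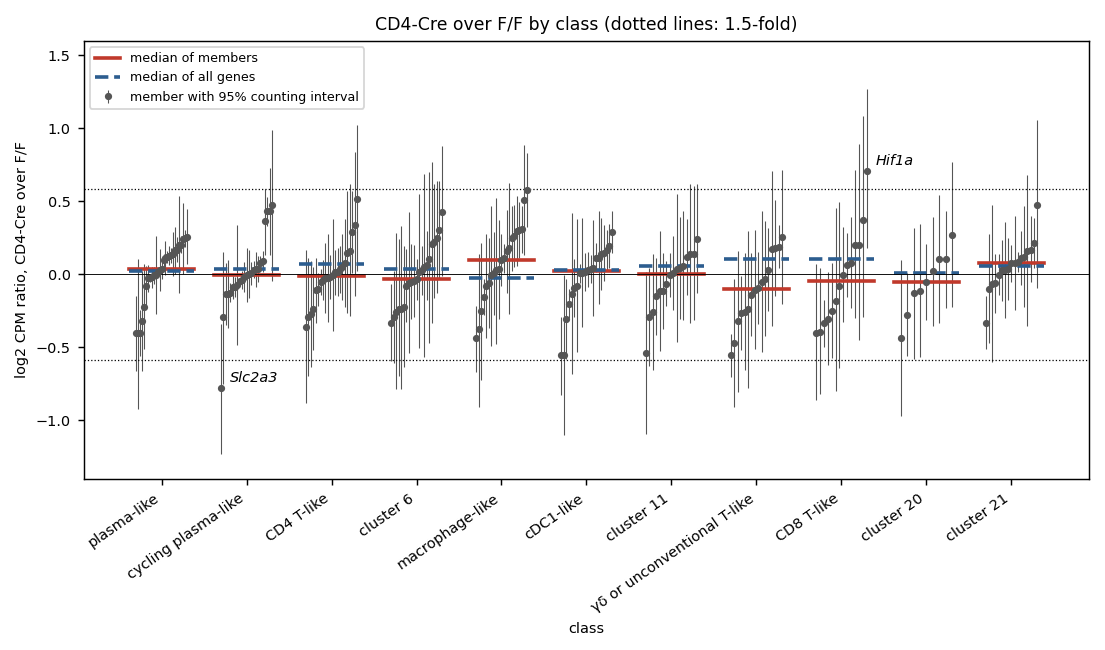
Log2 CPM ratio of CD4-Cre over F/F (y axis) for each member with at least 100 UMIs (points, with 95% counting intervals) in 11 classes (x axis), with the median of members (red), the median of all genes (blue, dashed) and dotted lines at 1.5-fold. The points of Slc2a3 in cycling plasma-like cells and Hif1a in CD8 T-like cells lie past the dotted lines, and all others lie between them.

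In plasma-like cells 27 members were compared and none passed 1.5-fold, where 2.5% of all genes passed it (0.94% higher and 1.56% lower in CD4-Cre). Their median log2 ratio was 0.04, against 0.03 for all genes. The lowest ratios were 0.76 (95% interval 0.63 to 0.90) for Ddit4, 0.76 for Pfkfb4, whose interval included 1, and 0.76 (95% interval 0.68 to 0.84) for Hk2. Slc7a5 was highest at 1.19 (95% interval 1.14 to 1.24). In cycling plasma-like cells the median of 23 members was -0.01. Past 1.5-fold was 1 member, and 2.42% of all genes passed it (0.796% higher and 1.62% lower in CD4-Cre). Slc7a5 had a ratio of 1.35 (95% interval 1.26 to 1.44) there and Hk1 of 1.35 (95% interval 1.10 to 1.66), both short of the limit.

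In CD4 T-like cells 22 members were compared with none past 1.5-fold, where 2.36% of all genes passed it (1.56% higher and 0.802% lower in CD4-Cre). Their median log2 ratio was -0.01, against 0.07 for all genes. The member furthest from equality was Pfkfb3, with 26.2 CPM in CD4-Cre against 18.3 CPM in F/F and a ratio of 1.43 (95% interval 1.02 to 2.03). Gapdh, Ldha and Pkm had ratios of 0.96 (95% interval 0.91 to 1.02), 0.99 (95% interval 0.89 to 1.10) and 0.97 (95% interval 0.89 to 1.07). These genes of the lower pathway thus had ratios near 1 in CD4 T-like cells, with intervals that included 1.

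CD8 T-like cells had a member median of -0.04 over 14 members, of which 1 passed 1.5-fold, where 11.1% of all genes passed it (8.75% higher and 2.3% lower in CD4-Cre). Gapdh had 619 CPM in CD4-Cre against 782 CPM in F/F there, a ratio of 0.79 (95% interval 0.71 to 0.89). Pgk1 at 0.76, Eno1 at 0.76 and Aldoa at 0.81 lay on the same side, with intervals that included 1. Of the 14 members, 8 had ratios below 1 and 6 above 1. In γδ or unconventional T-like cells the median of 16 members was -0.10, against 0.10 for all genes. No member passed 1.5-fold, where 6.18% of all genes passed it (4.22% higher and 1.96% lower in CD4-Cre). Gapdh had a ratio of 0.68 (95% interval 0.61 to 0.75) there. Mki67 was found in 6.73% of CD4-Cre against 14.2% of F/F cells of that class, and the 12 cycling markers, all found in both libraries, summed to 552 CPM in CD4-Cre against 1531 CPM in F/F. Among its cells with no Mki67 UMI, 291 CD4-Cre and 212 F/F, Gapdh had 415 CPM in CD4-Cre against 526 CPM in F/F.

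Clusters 6, 11, 20 and 21 had member medians of -0.03 (21 members), 0.00 (16), -0.05 (9) and 0.08 (17), with no member past 1.5-fold. For cluster 6, 3.76% of all genes passed it (2.28% higher and 1.49% lower in CD4-Cre), and for cluster 11, 3.76% of all genes passed it (2.49% higher and 1.27% lower in CD4-Cre). For cluster 20, 5.13% of all genes passed it (2.35% higher and 2.77% lower in CD4-Cre), and for cluster 21, 3.47% of all genes passed it (1.99% higher and 1.49% lower in CD4-Cre). In cluster 21 Slc3a2 had 205 CPM in CD4-Cre against 257 CPM in F/F, a ratio of 0.80 (95% interval 0.70 to 0.90).

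Macrophage-like cells had the highest member median, 0.10 over 21 members, against -0.03 for all genes. At resolution 2 a macrophage-like cluster held 195 CD4-Cre and 377 F/F cells. A monocyte-like cluster, with Lyz2 and C1qb among its leading genes, held 216 CD4-Cre and 248 F/F cells there. The class may thus mix both cell types in unlike shares, and the part of this in its ratios was not tested. No member passed 1.5-fold, where 5.35% of all genes passed it (1.64% higher and 3.71% lower in CD4-Cre). Eno1 had 98.7 CPM in CD4-Cre against 66.1 CPM in F/F, and Pfkp had 44.1 CPM in CD4-Cre against 31.0 CPM in F/F, a ratio of 1.42 (95% interval 1.10 to 1.85). Pkm, Aldoa and Pgk1 had ratios of 1.24 (95% interval 1.11 to 1.38), 1.23 (95% interval 1.08 to 1.41) and 1.23 (95% interval 1.04 to 1.45). Gapdh, Ldha and Hif1a had smaller ratios of 1.08 (95% interval 1.01 to 1.16), 1.19 (95% interval 1.02 to 1.39) and 1.20 (95% interval 1.04 to 1.39). On the F/F side were Hk2 at 0.74 (95% interval 0.63 to 0.86) and Slc3a2 at 0.90 (95% interval 0.82 to 0.98). In cDC1-like cells the median of 20 members was 0.02. No member passed 1.5-fold there, where 2.32% of all genes passed it (0.964% higher and 1.35% lower in CD4-Cre).

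Hk2 was the member whose ratios lay on the F/F side in the most classes without exception. Its level was lower in CD4-Cre than in F/F in 5 of the 5 classes where it could be compared, which share both libraries and so are not independent. The ratio was 0.68 (95% interval 0.57 to 0.82) in cDC1-like cells, 0.74 (95% interval 0.63 to 0.86) in macrophage-like cells and 0.76 (95% interval 0.68 to 0.84) in plasma-like cells. It was 0.74 (95% interval 0.51 to 1.07) in cluster 20 and 0.91 (95% interval 0.79 to 1.05) in cycling plasma-like cells, where the interval included 1. None was past 1.5-fold, and empty barcodes held 7.29 CPM in CD4-Cre and 7.92 CPM in F/F of Hk2. As a share of hexokinase UMIs in cDC1-like cells, Hk2 made up 52.0% (95% interval 47.1 to 56.9) in CD4-Cre against 60.9% (56.1 to 65.6) in F/F.

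Other genes of these pathways were listed by function and read by the same rule. Of 33 other HIF-1 targets, 23 could be compared in plasma-like cells with none past 1.5-fold and a median log2 ratio of -0.01, and 17 in CD4 T-like cells with none past it and a median of 0.06. In cluster 11, 2 of 12 were at least 1.5-fold higher in CD4-Cre, where 2.49% of all genes were. They were Hif1an, a further oxygen sensor, with 38.8 CPM in CD4-Cre against 21.2 CPM in F/F, and P4ha1, a collagen hydroxylase, with 46.9 CPM in CD4-Cre against 29.0 CPM in F/F. In cycling plasma-like cells Ankrd37 was at 3.58 CPM in CD4-Cre against 2.03 CPM in F/F and Hilpda, a lipid droplet protein, at 2.83 CPM in CD4-Cre against 4.98 CPM in F/F, so 1 was higher and 1 lower of 21, where 0.796% of all genes were higher and 1.62% lower. Tfrc, the transferrin receptor, had 56.2 CPM in CD4-Cre against 32.9 CPM in F/F in cluster 21 but 15.5 CPM in CD4-Cre against 25.1 CPM in F/F in macrophage-like cells. Rora had 8.13 CPM in CD4-Cre against 13.8 CPM in F/F in cDC1-like cells.

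Of 36 further genes of glycolysis, the pentose phosphate route and glycogen, 25 were compared in plasma-like cells, where the germ cell form Gapdhs was past 1.5-fold with 0.716 CPM in CD4-Cre against 1.24 CPM in F/F. Txnip, a brake on glucose uptake that rises with glucose, had 47.8 CPM in CD4-Cre against 30.2 CPM in F/F in cycling plasma-like cells, a ratio of 1.58. Pfkfb2 had 10.4 CPM in CD4-Cre against 17.9 CPM in F/F in macrophage-like cells and G6pdx, the entry enzyme of the pentose phosphate route, 7.21 CPM in CD4-Cre against 12.3 CPM in F/F in cDC1-like cells. Of 38 genes of pyruvate entry and the citric acid cycle, 35 were compared in plasma-like cells with none past 1.5-fold and a median of 0.08, and 29 in CD4 T-like cells with none past it and a median of 0.09. In γδ or unconventional T-like cells Emb, a partner of monocarboxylate transporters, had 593 CPM in CD4-Cre against 343 CPM in F/F, while Idh3a and Sdhd of the citric acid cycle were lower, Idh3a with 22.5 CPM in CD4-Cre against 46.9 CPM in F/F, Sdhd with 32.1 CPM in CD4-Cre against 48.3 CPM in F/F. Idh3a was also lower in cluster 11 of CD4-Cre, with 23.7 CPM in CD4-Cre against 37.4 CPM in F/F.

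Of 27 genes of ATF4 and amino acid stress, 25 were compared in plasma-like cells and 3 were at least 1.5-fold lower in CD4-Cre, where 1.56% of all genes were. They were Ddit3 (CHOP) with 17.6 CPM in CD4-Cre against 27.6 CPM in F/F, Atf3 with 6.78 CPM in CD4-Cre against 10.5 CPM in F/F and Nupr1 with 2.17 CPM in CD4-Cre against 12.2 CPM in F/F. Nupr1 is also high in pancreatic acinar cells, whose markers differed between the libraries as given above. Atf3 was lower in cDC1-like cells too, with 54.3 CPM in CD4-Cre against 90.2 CPM in F/F, and in cycling plasma-like cells, with 3.30 CPM in CD4-Cre against 5.46 CPM in F/F. Atf4 had 102 CPM in CD4-Cre against 171 CPM in F/F in cluster 6 and 93.8 CPM in CD4-Cre against 143 CPM in F/F in CD8 T-like cells, where the glutamine carrier Slc38a1 had 201 CPM in CD4-Cre against 302 CPM in F/F. In macrophage-like cells Slc7a1, the carrier of cationic amino acids, had 23.6 CPM in CD4-Cre against 43.8 CPM in F/F and Ddit3 21.7 CPM in CD4-Cre against 33.2 CPM in F/F. The remaining genes of this list past the limit were Nupr1 in cycling plasma-like cells with 0.289 CPM in CD4-Cre against 6.86 CPM in F/F, Psph in γδ or unconventional T-like cells with 36.6 CPM in CD4-Cre against 60.4 CPM in F/F and Ppp1r15a in cluster 20 with 161 CPM in CD4-Cre against 242 CPM in F/F.

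Of 25 genes of mTORC1 and Myc, 24 were compared in plasma-like cells, with a median log2 ratio of 0.01. Past 1.5-fold there was 1, Myc, with 2.76 CPM in CD4-Cre against 4.91 CPM in F/F, where 1.56% of all genes were lower. In cycling plasma-like cells 22 were compared, with a median of 0.05. There 1 was lower, Myc, with 3.76 CPM in CD4-Cre against 6.16 CPM in F/F. The 1 higher was Sesn3, an inhibitor of mTORC1, with 10.5 CPM in CD4-Cre against 6.90 CPM in F/F. Of all genes in that class, 1.62% were lower and 0.796% higher. In cluster 20, 1 of 7 was lower, Sesn1, with 77.1 CPM in CD4-Cre against 122 CPM in F/F, where 2.77% of all genes were lower. A list of 19 immediate early and heat shock genes, kept as a sign of cell handling, had median log2 ratios of -0.15 in plasma-like, -0.05 in cycling plasma-like, -0.17 in CD4 T-like, 0.04 in CD8 T-like, -0.04 in γδ or unconventional T-like, -0.01 in macrophage-like and -0.25 in cDC1-like cells. The medians were -0.18 in cluster 6, -0.12 in cluster 11, 0.09 in cluster 20 and 0.15 in cluster 21. Past 1.5-fold in plasma-like cells were 4 of its 19 genes, all lower in CD4-Cre, where 1.56% of all genes were. Besides Atf3, they were the heat shock genes Hspa1a with 1.07 CPM in CD4-Cre against 3.23 CPM in F/F and Hspa1b with 0.656 CPM in CD4-Cre against 1.99 CPM in F/F and the nuclear receptor gene Nr4a1 with 4.12 CPM in CD4-Cre against 6.87 CPM in F/F. In cycling plasma-like cells Hspa1a had 0.925 CPM in CD4-Cre against 4.09 CPM in F/F. Macrophage-like cells had 18.6 CPM in CD4-Cre against 46.2 CPM in F/F of Hspa1b and 38.3 CPM in CD4-Cre against 69.8 CPM in F/F of Hspa1a, but Ier3 was higher in CD4-Cre, with 224 CPM in CD4-Cre against 125 CPM in F/F. In cDC1-like cells Ier3 was also higher, with 18.4 CPM in CD4-Cre against 6.83 CPM in F/F, while Hspa1a had 1.69 CPM in CD4-Cre against 21.04 CPM in F/F and Jun 83.2 CPM in CD4-Cre against 145 CPM in F/F. Among T cell classes and cluster 20, Fosb was higher in cluster 11 with 278 CPM in CD4-Cre against 179 CPM in F/F. Zfp36 was lower in cluster 11 with 89.8 CPM in CD4-Cre against 142 CPM in F/F. Lower too were Dnajb1 in CD4 T-like cells with 16.5 CPM in CD4-Cre against 24.9 CPM in F/F, Nr4a1 in cluster 6 with 72.9 CPM in CD4-Cre against 139 CPM in F/F and Dusp1 in cluster 20 with 154 CPM in CD4-Cre against 240.0 CPM in F/F. CD8 T-like cells had 109.95 CPM in CD4-Cre against 179.8 CPM in F/F of Jun and 431 CPM in CD4-Cre against 656 CPM in F/F of Btg2. The part of handling in any member's ratio was not tested.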

How the data were processed

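The deposited files held UMI counts per gene and barcode for all barcodes, made by the authors with Cell Ranger 7.2.0 per the file headers, with no normalization. Seurat 5.0.1 and the builds mm10 and GRCm38 are named in the submitters' processing notes, and the step each served is not given in the sources used here. The 32 genes and all lists were chosen with earlier results of these data known, so the list counts are no independent evidence.

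Barcodes with at least 1000 UMIs, 500 genes and at most 10% mitochondrial UMIs were kept. Both libraries were clustered together with scanpy 1.11.5 and leidenalg 0.10.2 (Python 3.11.15, numpy 2.4.6, scipy 1.17.1, scikit-learn 1.9.0) on 2000 variable genes, 30 principal components and 15 neighbours at resolution 1. The 32 genes, the other lists, Cd4, Gramd1a, immunoglobulin and free-RNA genes were left out of the clustering. Classes were named from fixed markers. No doublet caller was run, and clusters mixing T cell and plasma cell genes were left out.

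UMIs were summed by class and library and divided by UMIs outside immunoglobulin genes (CPM). Levels carry exact 95% Poisson intervals, ratios exact binomial intervals of the split of UMIs, and shares exact Clopper-Pearson intervals, all for counting error only. The ratio and interval steps were tested on simulated counts. With 1 pool of 3 mice per genotype there was no test. A gene was compared in classes of at least 100 cells per library where it had at least 100 UMIs over both, and was past the limit at a CPM ratio of 1.5 or more in either direction. Shares of cells with a UMI used cells thinned to 1500 UMIs. Named are all 32 genes, with values in every class for the 12 with most UMIs and in chosen classes or as ranges for the others. From each other list up to 4 genes per class past 1.5-fold are named. Gene positions are from GENCODE M21 on GRCm38 and promoters from RefSeq GRCm38.p6.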

Additional observations from a re-analysis of the deposited data

How the results depend on the processing

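No paired analysis was possible because each genotype was 1 pooled library, so replicates could be neither paired nor left out. The counts of members past 1.5-fold (1 in cycling plasma-like cells, 1 in CD8 T-like cells, 0 in the other compared classes) moved with the limits. At a limit of 5/4-fold they were 3 in plasma-like cells, 5 in cycling plasma-like cells, 3 in the CD4 T-like class, 5 in the CD8 T-like class, 2 in γδ or unconventional T-like cells, 4 in macrophage-like cells, 2 in cDC1-like cells, 2 in cluster 6, 1 in cluster 11, 1 in cluster 20 and 2 in cluster 21. At 2-fold they were 0 in cycling plasma-like and 0 in CD8 T-like cells. With genes of at least 20 UMIs they were 5 in cluster 20, 6 in cluster 21 and 2 in each of the other 9 classes. With cells thinned to 1500 UMIs the count was 0 in cycling plasma-like and CD8 T-like cells and 1 in macrophage-like cells. As a mean over cells it was 2 in cycling plasma-like cells and 1 in cluster 20. Without the 5 cells with most UMIs of the gene it was 1 in the CD4 T-like class. Among cells with no Mki67 UMI, an alternative chosen after seeing the data, it was 1 in plasma-like, 0 in cycling plasma-like and 1 in macrophage-like cells. Macrophage-like cells also had 1 with immunoglobulin UMIs in the denominator, at most 5% mitochondrial UMIs, at least 2000 UMIs per cell, resolution 0.5 or 2, under 10% immunoglobulin UMIs or centring on the median of all genes. cDC1-like cells had 1 with at most 5% mitochondrial UMIs, 2 at resolution 0.5 and 1 with centring. Cluster 11 had 1 under 10% immunoglobulin UMIs and 1 with centring, γδ or unconventional T-like cells 1 with centring, and CD8 T-like cells 2 with at most 5% mitochondrial UMIs. The cause of these moves was not tested, beyond the lower limits admitting more genes. Thinning also left fewer UMIs per gene, so fewer members reached the minimum of 100 UMIs needed to be counted. The counts of 0 after thinning therefore do not show that the Slc2a3 or Hif1a ratio fell under 1.5-fold. Both ratios stayed past 1.5-fold in the ranges given below.

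The member median moved with thinning, to 0.32 in macrophage-like cells over 10 members and -0.18 in cluster 21 over 3 members. With immunoglobulin UMIs in the denominator, 25 summed enzyme levels of a class and library left their counting interval and 11 stayed inside. Without the 5 cells with most UMIs of each gene, 34 left it and 2 stayed. Rankings of plasma cell levels against other classes are therefore given only per UMI outside immunoglobulin genes. Neither of the 2 ratios past 1.5-fold changed direction under these alternatives. The log2 ratio of Slc2a3 in cycling plasma-like cells ranged from -1.19 to -0.76 and that of Hif1a in CD8 T-like cells from 0.60 to 0.95, and that of Eno1 in macrophage-like cells, just inside the limit, from 0.48 to 0.69. Classes were matched by name at resolutions 0.5 and 2. Clusters that met no marker rule have no name there, so the numbered clusters have no value, although clusters with like leading genes were present. With 1 pool per genotype, differences between mice, sorts and libraries cannot be told apart from genotype, and small classes rest on few cells.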
